A study of Arabidopsis lyrata subsp. lyrata with 8 samples.

Results

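Genes for suberin synthesis and export were compared between root and flower bud tissue of Arabidopsis lyrata subsp. lyrata, a perennial relative of A. thaliana. The array names part of its gene models by an A. thaliana locus code, and the 9 models whose name holds the code of CYP86A1, ASFT, GPAT5, KCS2, FAR4, FAR5, ABCG2, ABCG6 or ABCG20 were taken out of 32386 models. Each code was carried by 1 model with 1 probe, printed on the array as 1 spot (CYP86A1 and ASFT) or 2 spots (the other members). Plants were 6 weeks old and in hydroponic culture, the labels name no genetic change or treatment, and each of 4 root and 4 flower bud replicates pooled 8 to 10 plants. Whole organs were taken, so a smaller number of cells of a type and less RNA per cell cannot be told apart. Genes are called by the A. thaliana symbol of their code, and the roles given are those known from A. thaliana.

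Suberin is a polyester of fatty acid derivatives, glycerol and ferulate that is laid down on the inner face of the cell wall. In roots it coats the endodermis and later the periderm, where it limits the uncontrolled passage of water and solutes. Its monomers are made by lengthening fatty acyl chains, hydroxylating their far end or reducing them to alcohols, joining them to glycerol and esterifying them with ferulate. Transporters of the ABCG family are needed for the monomers to reach the wall, where they are linked into the polymer.

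All arrays lay on 1 slide, with roots in slide row 1 and flower buds in slide row 2, so row and tissue cannot be told apart. The labels define all 8 as biological replicates, but between flower bud arrays 1 and 2 the variance was only 0.787 of that expected from spot scatter within an array. It was 0.903 between arrays 3 and 4, against 4.78 to 19.4 for the other pairs within a tissue. Each such pair was thus within measurement noise and was counted as 1 sample, A for arrays 1 and 2 and B for arrays 3 and 4, which left 4 root and 2 flower bud samples. Precision is limited by so few arrays, above all in flower bud. The labelled tissues carried their markers: 4 of 4 models of root genes (COBL9, WER and PHT1;1) passed as higher in root, and 4 of 4 floral regulators (AP1, AP3, PI and SEP3) passed as higher in flower bud. Endodermal and Casparian strip genes with a model, CASP1, CASP2, CASP5 and SCR, were also higher in root in 4 of 4 cases. The summed level of those 4 lay at 13.2 to 22.8 on root arrays and 0.948 to 1.11 on flower bud arrays, and CASP2 and CASP5 were well above background on no flower bud array. CASP1 was the brightest of them in root (mean log2 level 3.45) and SCR in flower bud (0.01), so different genes lead the sums.

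Levels are log2 signals relative to the 75th percentile of the array, so that 0 is a signal equal to that percentile and 1 unit is a doubling. Differences are root minus flower bud on that scale and are followed by ± their standard error (4 against 2 samples), from limma over 26420 models with Benjamini-Hochberg adjustment. A gene was called when its adjusted p was under 0.05 and its fold at least 2. The level of one gene cannot be set against that of another, because probes differ in how strongly they bind.

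The suberin genes did not move as a block between the tissues. CYP86A1, ASFT, ABCG2 and ABCG20 were called higher in root, GPAT5 was called higher in flower bud, and KCS2, FAR4, FAR5 and ABCG6 were not called. Thus 4 of 9 were higher in root, where 24.3% of all models tested were called, and 1 of 9 was higher in flower bud, where 27.2% were. All but KCS2 had an adjusted p under 0.05, as 71.6% of all models did. With each array set to the spike-in RNAs in place of the 75th percentile, the share of all calls that were higher in flower bud was 72.7%, against 52.9%. The members' median difference was 0.89 and that of all models 0.0038. Differences ran from 7.19 for CYP86A1 to -1.89 for GPAT5. All 9 were well above background on all 8 arrays, and for 8 of 9 the root and flower bud samples did not overlap, as for 80.8% of all models.

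**Figure D1:**
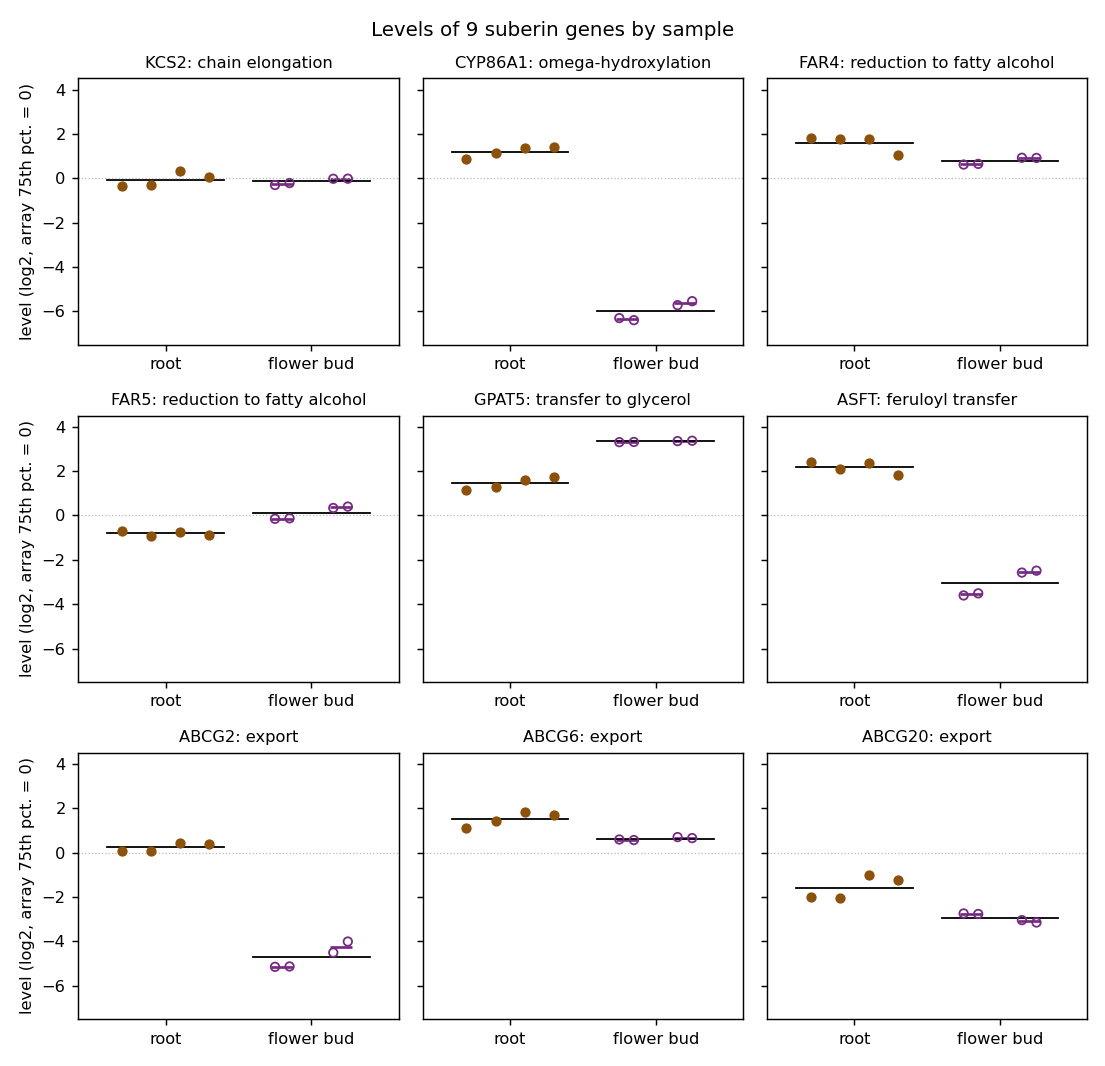
Level of each suberin gene (vertical axis, log2 relative to the array's 75th percentile) in root (filled points, 4 replicates) and flower bud (open points, 4 arrays, with a short bar at the mean of samples A and B). Long bars are tissue means. CYP86A1, ASFT and ABCG2 lie far lower in flower bud, GPAT5 lies higher there, and KCS2 overlaps.

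KCS2 (AT1G04220), a ketoacyl-CoA synthase that lengthens acyl chains for suberin, was at -0.36, -0.29, 0.34 and 0.05 in root replicates 1 to 4 and at -0.26 and -0.02 in flower bud samples A and B. It was the member whose tissues overlapped, and the flower bud samples lay within the root range. Its difference was 0.08 ± 0.23 (limma, adjusted p = 0.781), and its sign turned without root replicate 3 (-0.06) or without sample A (-0.04). KCR1, the ketoacyl-CoA reductase of the same elongation cycle, was at 0.95 ± 0.12 (limma, adjusted p = 3.93e-04), just under the fold minimum, and was called at 1.20 with the medians of the arrays made equal. It was at 0.68 with quantile normalization and at 0.24 with spike-in scaling (adjusted p = 0.644).

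CYP86A1 (AT5G58860), the cytochrome P450 that hydroxylates the far end of fatty acids for root suberin, had the largest tissue difference among the members. Its scanner signal was 8181, 7954, 7660 and 6693 on root arrays 1 to 4 and 65, 60, 91 and 106 on flower bud arrays 1 to 4. Its level was 0.87, 1.14, 1.37 and 1.40 in the roots and -6.35 and -5.63 in samples A and B. Every root lay far above both flower bud samples, and the 4 roots lay within 0.52 of each other. The difference was 7.19 ± 0.25 (limma, adjusted p = 8.49e-07), a fold of 146. Its flower bud signals, although well above background, were low enough for the treatment of background to matter. Normexp, a model-based background correction, was run with an offset of 50 added to each corrected signal, which by itself lowers the folds of dim genes. With it and the 75th percentile the difference was 6.14. The parts of the correction and of the offset in normexp values were not told apart.

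FAR4 (AT3G44540) and FAR5 (AT3G44550) encode fatty acyl-CoA reductases that make the primary alcohols of suberin. Their models carry the consecutive numbers 858 and 859 on scaffold 5, followed by 860 for FAR8, a reductase of the same family. FAR4 was at 1.84, 1.76, 1.79 and 1.04 in root replicates 1 to 4 and at 0.63 and 0.92 in samples A and B. Root replicate 4 lay apart from the other roots and close to sample B, without overlapping it. The difference of 0.83 ± 0.26 (limma, adjusted p = 0.0257) was under the fold minimum. FAR4 was called when root replicate 4 was left out, at 1.02 (limma, adjusted p = 8.79e-04), but leaving out any other sample gave 0.69 to 0.97 with adjusted p of 0.0548 to 0.144. With quantile normalization it was at 0.67 (adjusted p = 0.0622) and with spike-in scaling at 0.12 (adjusted p = 0.848).

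FAR5 ran the other way and was at -0.72, -0.91, -0.74 and -0.87 in the roots and at -0.14 and 0.37 in samples A and B. The roots lay within 0.20 of each other, the narrowest root range of the members, and all were below the buds. The difference was -0.92 ± 0.18 (limma, adjusted p = 0.00324), again under the fold minimum. Without sample A it was -1.18 (adjusted p = 0.00292), past it.

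FAR8, the third model in the run, was called higher in flower bud at -1.90 ± 0.26 (limma, adjusted p = 6.73e-04), so the 3 models were at 0.83, -0.92 and -1.90 in the order of their numbers. The tissue difference of FAR4 exceeded that of FAR5 by 1.75 and that of FAR8 by 2.74, values that hold under any factor applied to a whole array. The log ratio of FAR4 to FAR8 was 3.66 to 3.81 in the 4 roots and 1.00 and 0.95 in samples A and B, an SD of 0.066 among the roots although both genes were low in root replicate 4. These pairs were picked after the values were seen, so the difference between them is a description. Whether the probes of these relatives also bind each other's transcripts was not tested. FAR2, the reductase of the pollen wall, was called higher in flower bud at -5.08 ± 0.50 (limma, adjusted p = 1.26e-04). Leaving out sample A gave -6.07, leaving out B gave -4.08, and normexp with the 75th percentile gave -3.80. FAR7 was at least 3.40-fold higher there (adjusted p = 2.59e-04) and lost its call with normexp and its offset. Here and below, "at least" folds rest on the lowest signal well above background on each array and are not strict bounds.

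GPAT5 (AT3G11430), the acyltransferase that joins suberin acyl chains to the glycerol backbone, was the 1 member called higher in flower bud. Its scanner signal was 9899, 8833, 8826 and 8500 on root arrays 1 to 4 and 50473, 50494, 48976 and 50812 on flower bud arrays 1 to 4. Its level was 1.15, 1.29, 1.58 and 1.74 in the roots and 3.31 and 3.36 in samples A and B. The flower bud samples differed by 0.05, the smallest gap of any member, and lay above every root. The difference was -1.89 ± 0.20 (limma, adjusted p = 1.60e-04), a 3.71-fold higher level in flower bud. GPAT5 was bright in root as well, so it was measured at a substantial signal in both tissues.

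GPAT6, which acts in the cutin of flowers, was called higher in flower bud at -2.17 ± 0.38 (limma, adjusted p = 0.00215). GPAT8, a cutin acyltransferase of leaves and stems, was at -0.28 ± 0.29 (adjusted p = 0.404) and was not called. The difference of CYP86A1 exceeded that of GPAT5 by 9.08 on the log2 scale. Among the 4 roots the log ratio of CYP86A1 to GPAT5 lay between -0.34 and -0.15 with an SD of 0.084, where the SD of each gene alone was 0.24 and 0.27. The scaling of the arrays enters the SD of each gene and cancels in the ratio, and its part in this gap was not tested. For CYP86A1 to ASFT the SD was 0.453, larger than that of either gene, and both pairs were picked after the values were seen. In samples A and B the log ratio of CYP86A1 to GPAT5 was -9.66 and -8.99, and that of CYP86A1 to ASFT was -2.79 and -3.10.

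ASFT (AT5G41040) transfers the feruloyl group to hydroxylated fatty acids of suberin. Its scanner signal was 23700, 15454, 15214 and 8993 on root arrays 1 to 4 and 420, 446, 804 and 877 on flower bud arrays 1 to 4. Its level lay between 1.82 (root replicate 4) and 2.41 (root replicate 1) in the roots and was -3.56 and -2.54 in samples A and B. Every root lay above both flower bud samples, which differed from each other by 1.03, the largest such gap among the members. The difference was 5.22 ± 0.32 (limma, adjusted p = 1.07e-05), a fold of 37.3.

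FACT, a related acyltransferase that makes alkyl caffeates of the root, was at 10.62 ± 0.78 (limma, adjusted p = 2.78e-05). It was well above background on all 4 root arrays and on the 2 arrays of sample B, but on neither array of sample A, so its fold rests partly on signals near background. Leaving out sample A gave 9.07, leaving out B gave 12.17, and the value was 8.80 with normexp and the 75th percentile. DCF, the feruloyl transferase of leaf cutin, was called the other way at -5.19 ± 0.27 (limma, adjusted p = 4.66e-06; -4.28 with normexp and the 75th percentile). LACS2, an acyl-CoA synthetase of cutin, was at -0.52 ± 0.15 (adjusted p = 0.0176), under the fold minimum. It was called at -1.23 with spike-in scaling (adjusted p = 0.0231) and was at -0.28 with equal medians (adjusted p = 0.144).

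ABCG2 (AT2G37360), ABCG6 (AT5G13580) and ABCG20 (AT3G53510) are half-size transporters that are jointly needed for the suberin of roots and seed coats. ABCG2 was at 0.07, 0.05, 0.44 and 0.39 in root replicates 1 to 4 and at -5.14 and -4.26 in samples A and B. All roots lay far above both buds. The difference was 4.94 ± 0.27 (limma, adjusted p = 6.55e-06), a fold of 30.7. Its 2 spots differed by 0.77 on flower bud array 4 and by at most 0.22 on the other arrays.

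ABCG20 was at -1.99, -2.06, -1.01 and -1.26 in the roots and at -2.76 and -3.10 in samples A and B. Its root range of 1.05 was the widest of the members, against a median range of 0.51 over all models. The difference was 1.35 ± 0.34 (limma, adjusted p = 0.0108), and the call was lost without sample B, at 1.18 (adjusted p = 0.0720). ABCG6 was at 1.11, 1.41, 1.84 and 1.71 in the roots and at 0.57 and 0.67 in samples A and B. All roots lay above both buds, but the difference of 0.89 ± 0.22 (limma, adjusted p = 0.0106) was under the fold minimum. It passed without root replicate 1, at 1.03 (adjusted p = 0.00368). Its adjusted p was 0.0629 when sample A was left out (0.85) and 0.698 with spike-in scaling (0.19).

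The tissue difference of ABCG2 therefore exceeded that of ABCG6 by 4.05 and that of ABCG20 by 3.59. In both pairs the log ratios of the tissues did not overlap, as the levels of 80.8% of all models taken singly did not. For ABCG6 against ABCG20 the gap was -0.46 and the log ratios overlapped. These pairs, too, were not planned before the values were seen. ABCG1, a half-size transporter known from suberin and the pollen wall, gave -1.71 ± 0.20 (limma, adjusted p = 3.19e-04) and was called for flower bud. ABCG17 and ABCG18, with consecutive model numbers 1923 and 1924 on scaffold 5, were well above background on no root array. They were at least 681-fold and at least 267-fold higher in flower bud (limma, adjusted p = 4.87e-07 and 7.76e-08). With normexp, its offset of 50 included, and the 75th percentile they were at -6.47 and -5.33, which is smaller than these bounds. ABCG11 was not tested, since it was above background on 3 root arrays and no flower bud array.

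**Figure D2:**
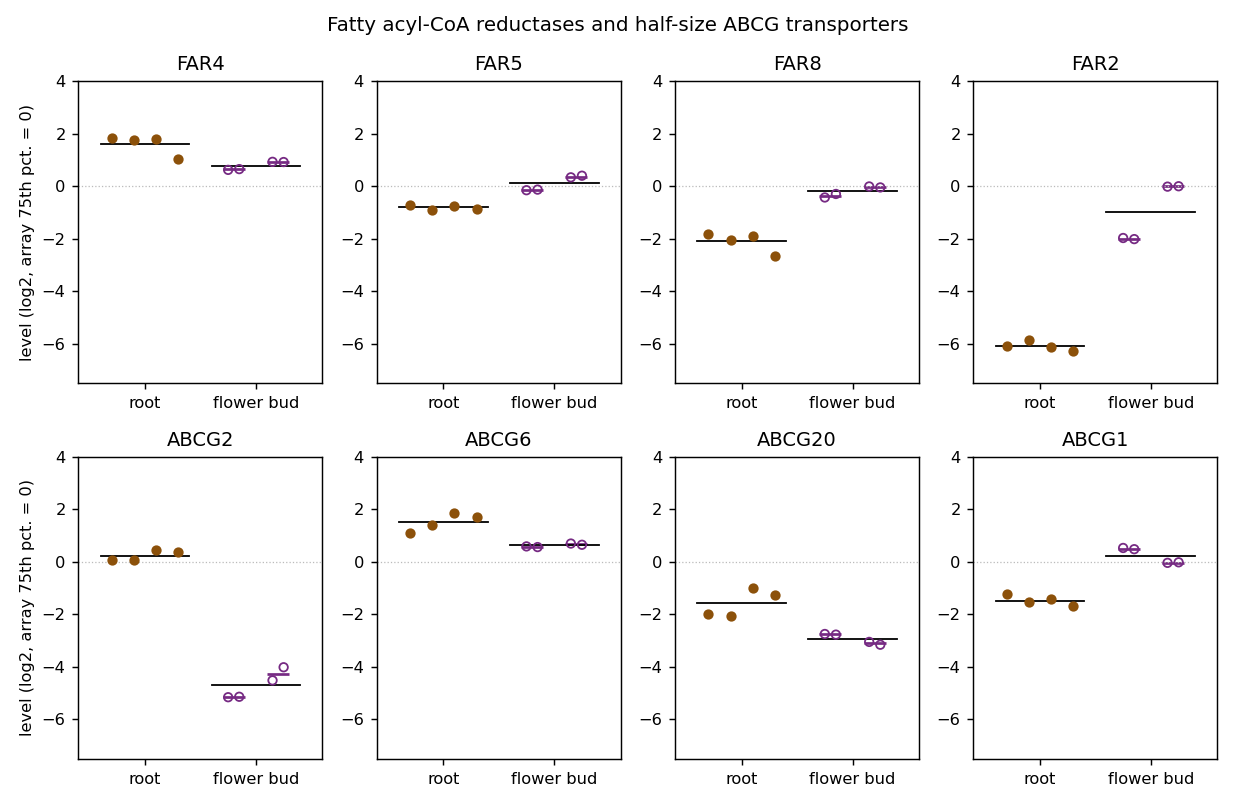
Levels (log2 relative to the array's 75th percentile) of 4 fatty acyl-CoA reductases, upper row, and 4 half-size ABCG transporters, lower row, with symbols as in the plot of all members. FAR4 lies higher in root and FAR5, FAR8 and FAR2 lie higher in flower bud, while ABCG2 falls furthest in flower bud and ABCG1 rises there.

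Of 27 other genes listed for the pathway, 15 had a model with their code and 14 were tested. Of these 9 were called higher in root, 2 higher in flower bud and 3 neither way, where 24.3% and 27.2% of all models were called in those directions. The 2 were DCF and ABCG1, and the list includes DCF and LACS2, given above as genes of cutin. LTPG15, a membrane-anchored lipid transfer protein needed for seed coat suberin, was among those called higher in root. It was at 3.33, 3.49, 3.88 and 3.26 in the roots and at -5.89 and -3.64 in samples A and B. The difference was 8.25 ± 0.58 (limma, adjusted p = 2.24e-05). It was 7.13 on sample B alone, 9.38 on sample A alone and 7.64 with normexp and the 75th percentile.

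Transcription factors of suberin were higher in root in 7 of 8 measured cases, against 24.3% of all models, with a median of 5.08 that is the same with bounded genes at their bound. MYB93, a MYB factor of the endodermis, was at least 625-fold higher (limma, adjusted p = 5.48e-07) and was above background on no flower bud array. MYB39, also called SUBERMAN, was at least 77.0-fold higher (adjusted p = 1.32e-04) with root values of -2.27, -2.37, -1.21 and -3.76, of which root replicate 4 was the lowest. With normexp, its offset of 50 included, and the 75th percentile MYB93 and MYB39 were at 6.53 and 3.98, which is smaller than their bounds.

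MYB92 and MYB53, which also promote suberin in the endodermis, were at 5.63 ± 0.13 and 5.32 ± 0.14 (limma, adjusted p = 1.58e-07 and 2.48e-07). Root ranges of MYB92 and MYB53 were 0.23 and 0.30, and their flower bud samples differed by 0.02 and 0.01. With normexp and the 75th percentile MYB53 was at 3.97. MYB9 and MYB107, factors of seed coat suberin, were at 4.84 ± 0.20 (adjusted p = 1.64e-06) and 1.03 ± 0.18 (adjusted p = 0.00217). MYB9 was above background on 2 of 4 flower bud arrays and was at 2.91 with normexp and the 75th percentile. The call of MYB107 was lost under spike-in scaling, with normexp and the 75th percentile, in the authors' deposited table (1.00), with arithmetic means of spots and the percentile over probes (0.99), without root replicate 3 (0.94) and without sample A (0.95). NAC046, a NAC factor of root suberin, was at 2.63 ± 0.18 (adjusted p = 2.01e-05), and MYB70 was at 0.13 ± 0.24 (adjusted p = 0.648). No factor was called higher in flower bud.

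**Figure D3:**
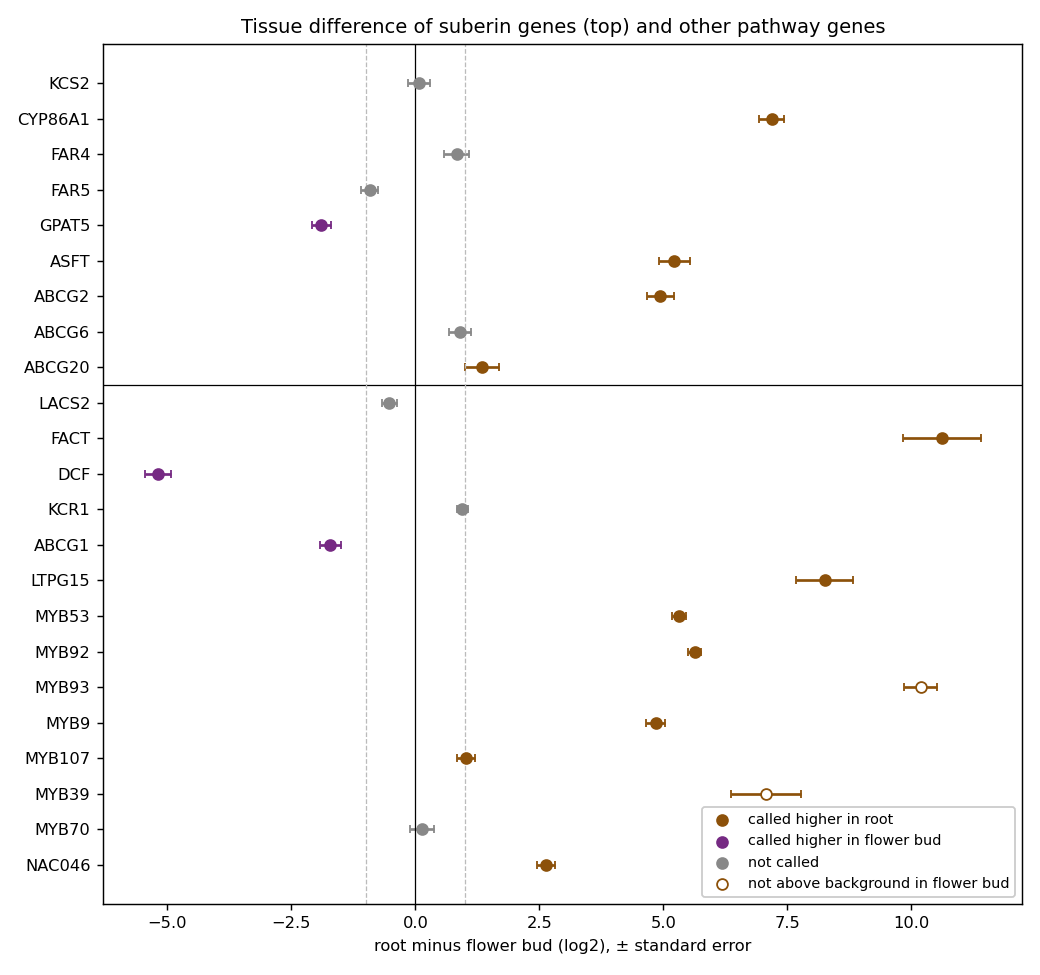
Root minus flower bud difference (log2, ± standard error) of the 9 suberin genes, above the line, and of 14 other pathway genes. Colour gives the call, open points are genes above background on no flower bud array, and dashed lines mark a 2-fold difference. Members spread from -1.89 to 7.19 and 7 of 8 transcription factors lie past 2-fold towards root.

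The flower bud samples differed from each other for part of the members. Sample B exceeded sample A for 8 of 9 members, by 1.03 for ASFT, 0.88 for ABCG2, 0.72 for CYP86A1, 0.51 for FAR5 and at most 0.29 for KCS2, FAR4, GPAT5 and ABCG6. ABCG20 was lower in B by 0.34. Among all models 50.1% were higher in B. LTPG15 was higher in B by 2.26. FACT was well above background on the arrays of B alone, so its gap has no exact size. Markers of the anther and tapetum were higher in B in 7 of 7 cases, by a median of 1.98, and their summed level was 8.84 to 27.3 on the flower bud arrays and 0.305 to 0.341 on the root arrays. Their part in the members' values was not tested. FAR2 of the reductases is the anther marker MS2.

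**Figure D4:**
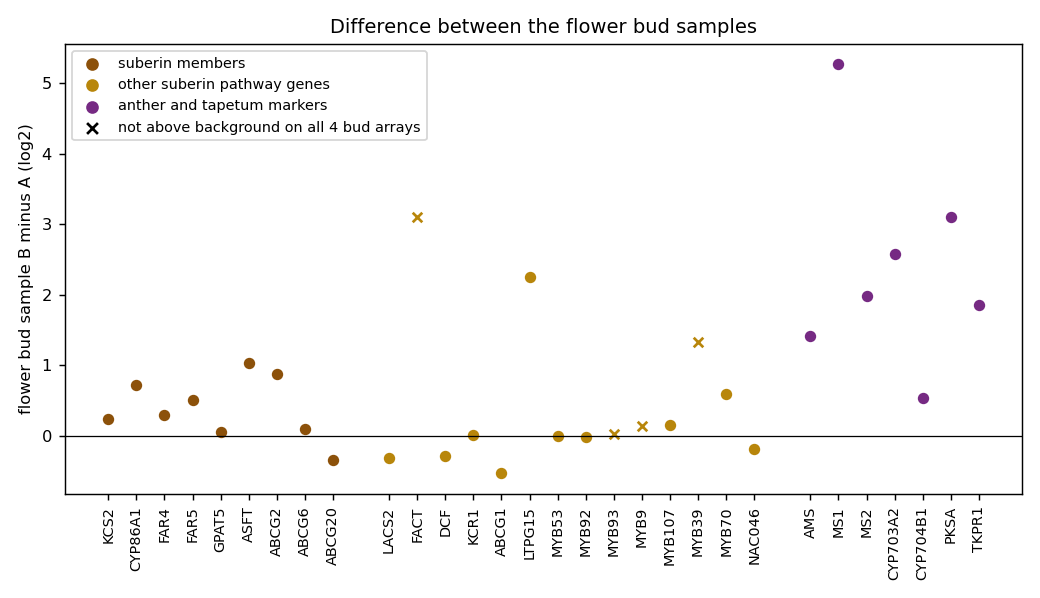
Difference between flower bud samples B and A (vertical axis, log2) for the 9 suberin genes, 14 other pathway genes and 7 anther and tapetum markers. Crosses mark genes not above background on all 4 flower bud arrays. ASFT, ABCG2 and CYP86A1 lie highest among the members, below most anther markers.

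Among the roots, 3 of 9 members were lower in root replicate 4 than in the mean of the other roots: FAR4 by 0.75, ASFT by 0.47 and FAR5 by 0.08. The remaining 6 were higher there, by 0.15 for KCS2 to 0.43 for ABCG20. The 75th percentile used for scaling was 4468, 3612, 2960 and 2541 on root arrays 1 to 4, so the unscaled signal of CYP86A1, GPAT5 and ABCG6 was lowest on array 4 where their scaled level was among the highest. The part of the scaling in these root differences was not tested. The 4 photosynthesis genes measured as green tissue markers summed to 0.433 to 1.34 on root arrays and 105 to 131 on flower bud arrays.

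The scaling between arrays decided the calls of members near the fold minimum. With the medians of the arrays made equal, FAR4 and ABCG6 joined the 4 members called higher in root, where 29.2% of all models were then called (24.2% in flower bud), at 1.08 (limma, adjusted p = 0.00461) and 1.14 (adjusted p = 0.00582). Scaling to the spike-in RNAs moved the median of all models by -0.71, with 15% called higher in root and 39.9% in flower bud. FAR5 then passed towards flower bud with -1.63 (adjusted p = 0.00467), ABCG20 was not called at 0.64 (adjusted p = 0.177), and KCS2 changed sign to -0.63 (adjusted p = 0.178). CYP86A1, ASFT, ABCG2 and GPAT5 kept their calls under all 19 alternatives tried. The 19 are not independent checks, and some could not change the differences of these genes. Each has 1 probe, so averaging a model's probes left its difference unchanged. Each was well above background on every array, so changing the filter on dim models did too. CYP86A1 stayed at 7.19 and GPAT5 at -1.89 in those settings. The authors' deposited table comes from the same arrays and is not a separate measurement.

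**Figure D5:**
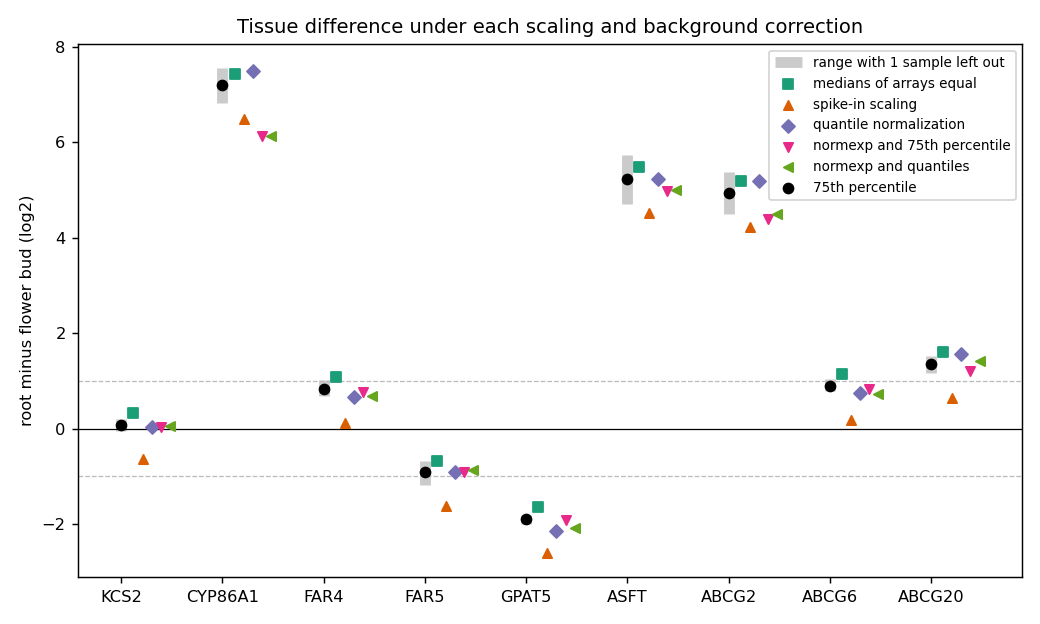
Root minus flower bud difference (log2) of each suberin gene with the 75th percentile (black), under 3 other scalings and with normexp background correction followed by the 75th percentile or by quantiles. Grey bars span the fits that left out 1 sample, and dashed lines mark a 2-fold difference. Among these, spike-in scaling gives the lowest value for 8 of 9 members, all but CYP86A1.

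Among 11572 other tested models with a locus code, those closest to CYP86A1 in their pattern over the 6 samples were ranked by the root mean square difference of gene-centred levels. The 5 closest were AT1G62440 (LRX2, an extensin of the root hair wall), AT3G25655 (the small peptide IDL1), AT5G01490 (the cation exchanger CAX4), AT1G76500 (the nuclear protein AHL29) and AT3G14550 (the prenyl diphosphate synthase GGPPS3). They lay 0.137 to 0.166 log2 away, with tissue differences of 7.04 to 7.41, and 3 of them were above background on no flower bud array. The 5 closest to GPAT5 were AT5G18550, AT3G56910, AT4G24460, AT1G69710 and AT3G60670, at 0.080 to 0.105 log2, with differences of -1.94 to -1.69. The tissue difference dominates this measure, since the 6 samples hold only 2 tissues.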

How the data were processed

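The members, lists and tests were chosen with earlier results of these data known. Per the file headers, the scanner files hold spot intensity values made by Agilent Feature Extraction 10.10.1.1 from 1 dye (Cy3), with background and spatial trend removed in each array and no scaling across arrays. Other columns used, per the file headers, hold raw median intensity and marks for background and outlying spots. The authors' deposited value table holds log2 values. It correlated at r = 1.0000 on every array with percentile-scaled log2 signals centred on each probe's median, so centring and direction match these. A correlation does not change with a factor or shift of a whole array, so it does not test the scale. Column medians, in array order, were 0.02, -0.05, 0.06 and 0.08 (root), then -0.04, -0.05, -0.02 and 0.06 (flower bud). The steps that made it are not described in the labels or headers.

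Outlier spots were left out, log2 signals of a probe's spots were averaged, and the 75th percentile of all non-control spots was subtracted. This summary was settled after the data were seen, because it matched the deposited table and the headers' percentile. Before it, arithmetic means of spots were tried, with the percentile over probes (6246 models called for root and 7288 for flower bud) or over spots (6405 and 7154), against 6412 and 7194, with the same members called. A model entered the test if 1 tissue or both had it well above background on each of 4 arrays (26420 models), a model with several probes being represented by the brighter. Where a gene was above background on no array of a tissue, "at least" folds set the bright tissue's mean against the higher, per array, of its own signal and the lowest signal well above background. That lowest signal is a minimum over all probes and not a detection limit, so these folds are not strict lower bounds. Spots above background made up 73.0 to 75.2% (root) and 78.9 to 80.5% (flower bud), with 0 saturated. Arrays were joined to samples as described, and limma 3.58.1 (lmFit and eBayes, 4 residual and 2.44 prior degrees of freedom) was run in R 4.3.3 with two-sided tests. Simulated data with 26420 genes gave 42 of 67 changes of 1.5 log2 (62.7%), 58 of 67 of 2 (86.6%) and 64 of 66 of 4 (97.0%), with 5 unchanged genes called. Only these few genes were changed there, whereas 71.6% of models had an adjusted p under 0.05 in the data. The adjustment is thus not equally strict, and these shares do not give the power of the test here. Named genes were all members, measured genes of the listed pathway groups and relatives, and the 5 closest patterns to CYP86A1 and GPAT5. A slide block could not be fitted with 1 slide. Locus codes were found for 0 of 9 members in the reference gene table, which was therefore not used. Python 3.11.15 with pandas 2.3.3, numpy 2.4.6 and matplotlib 3.10.9 served for reading and plotting.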

Additional observations from a re-analysis of the deposited data

Results flagged for a closer look

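Of 30 suberin and related genes examined for a root sample lying far from the other 3, 1 had such a sample. FAR4 was at 1.04 in root replicate 4, against 1.76 in the next lowest root, a gap of 0.906 of the whole range, above Dixon's critical value for 4 samples. Chance alone marks about 1 in 20 groups this way.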

How the results depend on the processing

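The suberin genes called higher in root numbered 4 (3 to 5 with 1 sample left out) and those called higher in flower bud 1 (1 to 2), the latter 2 under spike-in scaling. Their median difference was 0.89 (0.79 to 1.03 with 1 sample left out), 1.14 with equal medians and 0.19 with spike-in scaling. Under spike-in scaling KCS2 was at -0.63, FAR5 at -1.63, ABCG20 at 0.64 and MYB70 at -0.58, and 3958 models were called higher in root in all, against 6412. With equal medians FAR4 was at 1.08 and ABCG6 at 1.14. With 1 sample left out, KCS2 ran from -0.06 to 0.20, FAR4 from 0.69 to 1.02, FAR5 from -1.18 to -0.67, ABCG6 from 0.79 to 1.03, ABCG20 from 1.16 to 1.52 and MYB70 from -0.17 to 0.43. With only models above background on all 8 arrays, 5 other pathway genes were called higher in root and 4268 models higher in flower bud, where fewer were tested. The cause of the other changes was not tested. Same-numbered arrays of the tissues did not deviate together (r of -0.061 to 0.041), so the numbers pair nothing, and with the replicate number as a block on all 8 arrays 6470 and 7295 models were called, with 4 and 1 suberin genes. The 2 alternatives added after seeing the data, both on how spots are averaged, changed no call of the 9 members, but with the percentile over probes MYB107 lost its call (0.99) and other pathway genes called higher in root went from 9 to 8. Signals near background limit the folds of CYP86A1, FACT, DCF, MYB9, MYB39, MYB53, MYB93, FAR2, FAR7, ABCG17 and ABCG18. Dim flower bud signals also bear on LTPG15, ABCG2 and MYB92. With normexp and the 75th percentile these were at 7.64, 4.39 and 5.07, against 8.25, 4.94 and 5.63.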
